A study of Ciona robusta with 16 samples.

Results

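The 200 genes described here held the most constant share of the mRNA pool from the egg to the larva of *Ciona robusta*, a sea squirt. They were chosen from the deposited TPM values (Salmon's length-corrected share of all transcripts, with the same total in every library). Genes of the KY21 annotation with at least 20 TPM in all 16 libraries were ranked by their coefficient of variation (CV, the SD over the mean of TPM across the 16 libraries), and the 200 lowest were taken. The floor was passed by 3258 of the 18388 KY21 genes, so the members are 6.14% of the genes over the floor. KY21 rows held between 72.6% and 81.7% of the TPM of a library, and 36 rows outside that annotation held the rest. A share in TPM is therefore a share of a total that includes those rows. Because TPM chose the members, every TPM value below is a description of the choice, and no test of it is given.

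The libraries came from whole wild-type (WT) animals at 8 stages, with 2 replicates of about 150 embryos each. With hours after fertilization, they are unfE (eggs not yet fertilized, 0 h), fertE (fertilized eggs, 0.4 h), cell16 (16-cell embryos, 2.65 h), iniG (gastrulae at onset, 4.5 h), latN (late neurulae, 7.4 h), midTII and latTII (tailbud II embryos, middle at 10.9 h and late at 13.5 h) and larva (17.5 h). In each stage, 1 replicate shared its fertilization batch with the proteomics samples and the other came from a separate time course, and the sources do not say which number is which. The poly(A)-selected libraries hold 23.1 to 33.4 M estimated counts. RNA from whole embryos gives 1 value for all cells, so a change in the number of cells that use a gene and a change in the RNA per cell cannot be told apart.

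An egg is loaded with maternal mRNA, and the embryo degrades many of these transcripts while its own genome becomes active. An mRNA can hold its level by being stable, or by being made again as fast as it is lost, and RNA-seq of a whole embryo does not separate the routes. RNA-seq also gives shares, not amounts: an unchanged share of a growing mRNA pool is a growing number of molecules. Genes for basic functions of every cell (protein synthesis, membrane traffic, the actin cytoskeleton) are widely used as references. Different ways of scaling libraries rest on different assumptions about which genes stay the same.

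Among the members, the CV of TPM ran between 0.0571 and 0.195, with a median of 0.164, against a median of 0.410 for all genes over the floor. By the median over members, the library with the most TPM had 1.77 times as much as the library with the least, and this ratio was below 2 in 174 of the 200 members and in 221 of the 3258 genes over the floor. Counting error was a small part of this spread: the members had at least 207 counts in every library, and the CV that their counts alone would give had a median of 0.0177. The members just inside the limit were COPB2, a coat protein of Golgi vesicles (CV 0.194), KY21.Chr14.705 (0.195) and ZNRF2, a ubiquitin ligase (0.195). The genes just outside were KY21.Chr3.1612 (0.195), CRAT.1, a carnitine acyltransferase (0.195), and EIF5, an initiation factor (0.195), so the limit cuts through a continuous range.

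The members were not simply the most abundant mRNAs. Their mean TPM ran between 26.7 and 1562 with a median of 118, against a median of 98.3 over the floor. When the genes over the floor were split by mean TPM, 74 members were among the 815 most abundant and 48 among the 815 least abundant. The members lie on all 14 chromosomes named in the identifiers, with between 2 on chromosome 13 and 26 on chromosome 1, and 1 member is on an unplaced contig. In 8 cases, members had consecutive numbers in their identifiers, for example SNX14 and ISOC2, out of 805 such pairs among the genes over the floor. A symbol, that of the nearest match in human or frog, was at hand for 87 members (62 human and 25 frog) and for 1580 of the 3258 genes over the floor.

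The steadiest share of all belonged to KY21.Chr5.637, which has no symbol. Its TPM was 67.6 and 67.9 in unfE, 75.2 and 71.1 in fertE, 68.1 and 69.1 in cell16, and 73.3 and 64.7 in iniG. Later libraries had 68.8 and 67.9 TPM at latN, 61.6 and 71.7 at midTII, 72.6 and 70.8 at latTII, and 69.6 and 60.7 as larvae. The larva libraries lay on either side of the unfE libraries, and no stage stood apart from all others. The next were KY21.Chr14.295 (CV 0.0783, 67.4 to 92.0 TPM) and KY21.Chr7.633 (CV 0.0813, 165.6 to 226.5 TPM), again without a symbol.

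Among the members with a symbol, the 10 lowest CVs ran between 0.102 and 0.123. NOP9, an RNA-binding protein known from yeast for its part in making the small ribosomal subunit, had a lowest, median and highest TPM of 52.2, 65.1 and 78.8 over the 16 libraries (CV 0.102). CAPZB, the beta subunit of the protein that caps actin filaments, had 121.4, 139.8 and 169.0 TPM (CV 0.103), and its replicates (replicate CV 0.129) lay further apart than its stage means (CV 0.0414). RALA, a small GTPase that acts with the exocyst, had 353.2, 424.6 and 491.7 TPM (CV 0.104). GNAI1, an inhibitory G-protein alpha subunit, had 379.4, 527.3 and 626.4 TPM (CV 0.112). The low and the high end of GNAI1 were in latN replicate 2 and midTII replicate 2, which are neighbouring stages. The low end is that of a single library, since the latN replicates lay far apart (mean 447.0 TPM, SD 95.6).

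The other 6 of these genes were AP2B1, LIN7B, SNX14, MFSD9, STX7 and SNRK, with CVs of 0.121 to 0.123. AP2B1, a subunit of the clathrin adaptor at the plasma membrane, had 88.1, 129.1 and 149.6 TPM as its lowest, median and highest values, with the low end in cell16. SNX14, a sorting nexin, had 38.9, 50.6 and 59.2 TPM, and STX7, a fusion protein of late endosomes, had 74.1, 86.6 and 108.1 TPM. These 3 traffic genes were lowest in different stages, cell16 for AP2B1, unfE for SNX14 and latTII for STX7. LIN7B, a scaffold of cell polarity, stayed between 91.3 and 137.9 TPM, MFSD9, a membrane protein of a transporter family, between 87.1 and 147.2 TPM, and the kinase SNRK between 21.2 and 33.8 TPM, just over the floor.

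**Figure D1:**
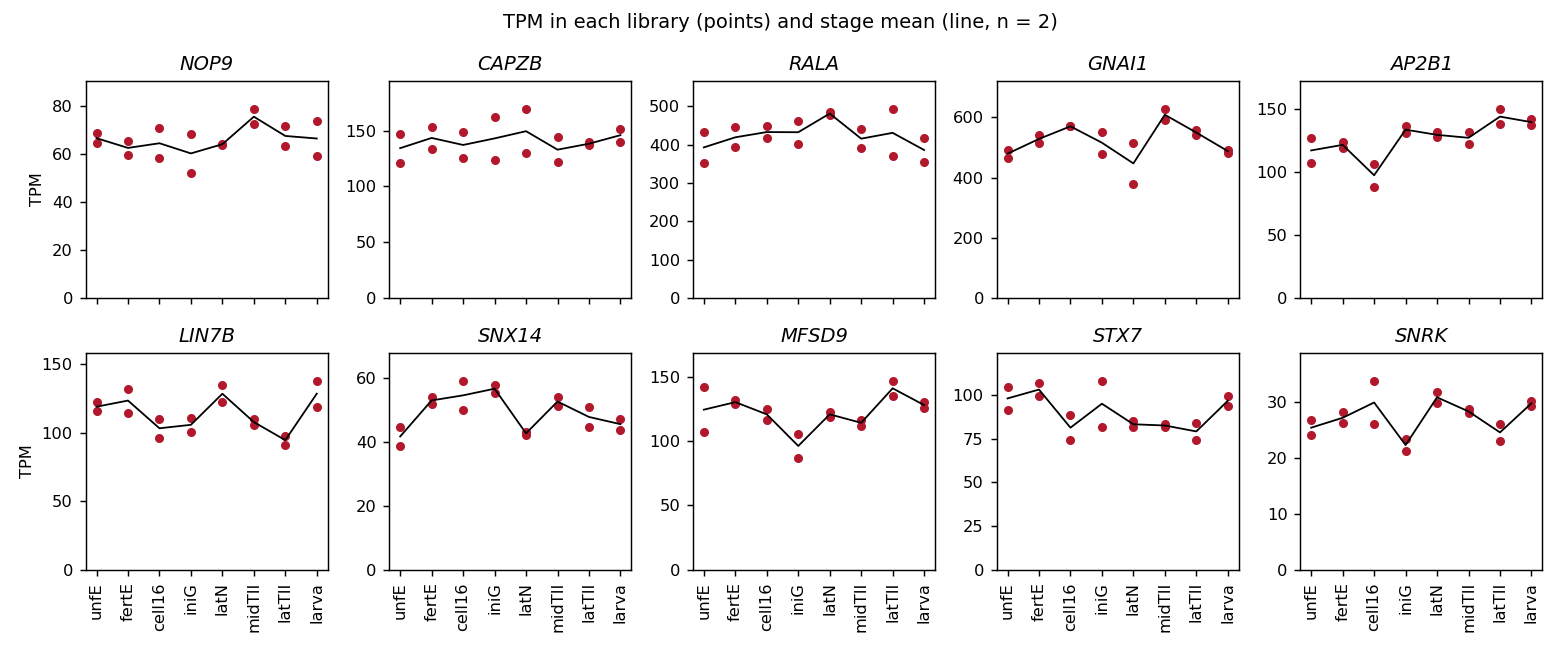
TPM (linear axis starting at 0) of the 10 members with a symbol and the lowest CV, by stage; points are the 2 libraries of a stage and the line joins the stage means. All 10 stay within a 1.70-fold range over the 16 libraries, and the stage with the highest mean differs from gene to gene.

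Within the members, the spread between stage means was larger than the spread between replicates. The measures are unlike, since a mean of 2 libraries damps replicate spread but still holds part of it. Set side by side, they do not give the spread between stages itself. The CV of the 8 stage means had a median of 0.142, and the pooled replicate SD over the mean had a median of 0.103. Over the floor these medians were 0.406 and 0.134, so the members differ from other genes mainly in their stage means. The rule ranks the CV over all 16 libraries and so selects on both kinds of spread. The replicate value exceeded the stage-mean value in 55 of the 200 members and in 166 of the 3258 genes over the floor, with the same limit. In TPM, the drift that remained peaked most often in latN and least often in unfE, but the place of latN depended on the total used. The median log2 difference of the members to unfE was highest in latN in TPM (0.15). With TPM rescaled to KY21 rows it was highest in cell16 (0.11), next to 0.07 in latN. With counts over the library total it was highest in fertE (0.05), next to -0.01 in latN. How often single members peaked in each stage was not tested on those scales. The highest TPM stage mean fell in latN for 53 members, in the larva for 33, in iniG for 29, in fertE for 24, in midTII for 20, in latTII for 18, in cell16 for 17 and in unfE for 6, and the lowest fell in the larva for 41, in latTII for 38, in midTII and unfE for 31 each, in iniG for 30, in latN for 13, in cell16 for 12 and in fertE for 4.

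Several members had a reproducible profile inside their narrow range. EIF5A, a translation factor needed for elongation through difficult stretches, had 373.5 and 377.4 TPM in cell16 and 525.4 and 499.5 TPM in iniG, and had 435.8 TPM or more in all later libraries. DKC1 and GAR1, protein subunits of the particles that modify ribosomal RNA, both had their highest stage mean in iniG. DKC1 had 378.0 and 356.2 TPM in iniG, against 244.0 and 224.4 TPM in unfE, and GAR1 had 192.3 and 256.6 TPM in iniG, against 139.0 and 193.0 TPM in unfE. The iniG libraries of DKC1 lay above all other libraries, while those of GAR1 overlapped other stages, so the GAR1 peak was not reproducible. HNRNPM, an RNA-binding splicing factor, had 70.5 and 69.4 TPM in midTII, below the 102.3 and 104.0 TPM of latN, and every library up to latN lay above every later one. DPY30, a subunit of complexes that methylate histones and the most abundant member with a symbol, had 488.4 and 568.7 TPM in midTII, against 756.8 and 748.3 TPM in latN. PRKAR1B, a regulatory subunit of protein kinase A, had the closest replicates of all members (replicate CV 0.0433), with 217.0 and 206.0 TPM in the larva, against 120.1 and 130.2 TPM in unfE.

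As a group, the members kept a nearly constant share too, which follows from choosing genes with a steady TPM and is no further result. Together they took 2.86% to 3.55% of the TPM in each library, with 3.10% and 3.12% in the larva, against 2.86% and 3.16% in unfE. Relative to unfE, the median log2 TPM of the members was 0.09 at fertE, 0.07 at cell16, 0.12 at iniG and 0.15 at latN, and then stood at 0.03 for midTII, -0.00092 for latTII and 0.0046 for the larva. The genes over the floor as a whole lost share, with a median of -0.64 at midTII, -0.75 at latTII and -0.84 in the larva. A constant share was therefore not the typical course even among genes that never dropped below 20 TPM, of which 782 of 3258 were higher in the larva than in unfE.

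The rule asks whether the members also stay constant in the deposited values that were scaled by a size factor per library, and they did not. On that scale the CV of the members had a median of 0.342 (0.189 to 0.511), next to 0.339 for all genes over the floor. None of the 200 members was among the 200 genes with the lowest CV of size-factor-scaled values: the best-placed member, KY21.Chr8.912, was at place 345 of 3258, the median member at place 1655 and the last at place 2558. Of the members with a symbol, PNPLA6, a lysophospholipase, had the lowest CV there (0.202, place 444).

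**Figure D2:**
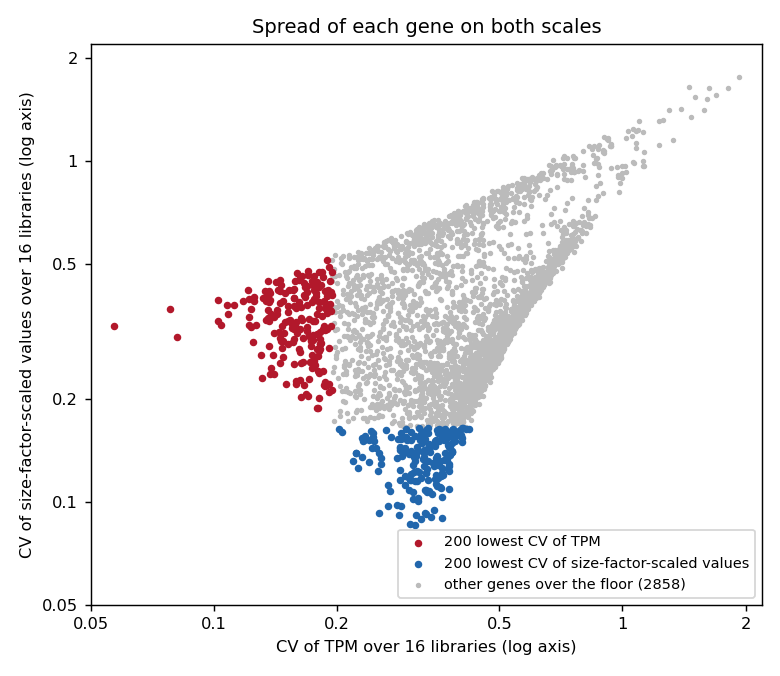
CV over the 16 libraries of each gene over the floor, of TPM (x) and of the size-factor-scaled values (y), both on log axes. The 200 members (red) lie at the left edge, with CVs up to 0.195 in TPM and between 0.189 and 0.511 on the other scale, and the 200 genes with the lowest CV of size-factor-scaled values (blue) lie at the bottom, with CVs of 0.202 to 0.421 in TPM; no gene belongs to both.

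The difference took the form of a shared step after gastrulation. Relative to unfE, the median log2 size-factor-scaled value of the members was 0.02 in fertE, 0.05 in cell16 and 0.05 in iniG, then 0.35 at latN, 0.87 at midTII, 0.93 at latTII and 0.99 in the larva. All 200 members had higher stage means in midTII, latTII and the larva than in unfE on this scale. In the larva the log2 difference to unfE ran between 0.26 and 1.75, or 1.19 to 3.36 times, with a median of 1.99 times. In 199 members both larva libraries lay above both unfE libraries, next to 51.7% of the 14643 genes tested, and in none did they lie below. On the TPM scale the larva libraries lay above the unfE libraries in 64 members, next to 39.2% of the genes tested, and below them in 60, next to 48.1%. These counts use the contrast that the choice of members used, so nothing is read from how they compare with those shares.

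**Figure D3:**
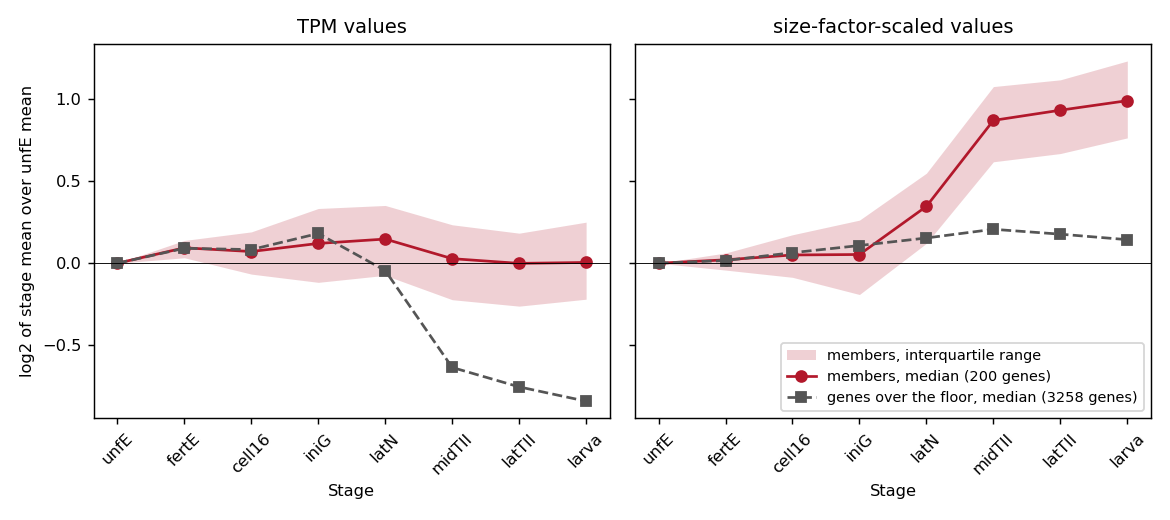
Median log2 of the stage mean over the unfE mean for the 200 members (red, with the interquartile range shaded) and for all 3258 genes over the floor (grey), in TPM (left) and in size-factor-scaled values (right). The members stay near 0 in TPM and reach 0.99 in the larva on the size-factor scale, while the genes over the floor fall to -0.84 in TPM and stay at 0.14 on the size-factor scale.

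Individual members show the step, which the change of scale imposes on any gene with a steady TPM. RALA had size-factor-scaled values of 12487 and 14753 in the larva, against 6687 and 7284 in unfE, while its TPM was 355.6 and 416.0 in the larva, against 353.2 and 432.0 in unfE. The same mRNA thus lay within its egg range in TPM and far above it on the size-factor scale. NOP9 had 3550 and 2886 in the larva, against 1679 and 1589 in unfE, with a TPM of 73.8 and 59.4 in the larva, against 64.7 and 68.8 in unfE. CAPZB had 4769 and 4440 in the larva, against 2056 and 2220 in unfE. For each of the 3 genes the larva libraries did not overlap those of unfE on the size-factor scale, and they did overlap in TPM.

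The gap between the scales was nearly the same for every member, since the deposited tables differ by 1 factor per library, while the size of the rise differed from member to member. For each gene over the floor, the count per TPM, relative to the median of its library, varied by at most 1.0008-fold between the 16 libraries, so the counts and the TPM of a gene part only by that library factor. In the larva, the size-factor log2 difference to unfE exceeded the TPM log2 difference by 0.96 to 1.00 in every member. The size-factor-scaled values of whole libraries summed to 38.4 and 38.9 M in the larva, against 20.3 and 19.6 M in unfE. None of the tables holds an added standard of known amount, so which scale follows the number of molecules per embryo was not tested.

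The mirror image is seen in the 200 genes that were most constant on the size-factor scale. Their CV there had a median of 0.140, and their CV of TPM had a median of 0.330. All 200 of them had a lower TPM in the larva than in unfE, with a median log2 difference of -0.99 and a range of -1.56 to -0.43. The best-placed of these 200 genes in the TPM ranking was at place 224, outside the 200 members. A gene that is steady on one scale must shift on the other by the library factors that separate the scales. The lack of shared genes and the lower TPM in the larva thus follow largely from those factors.

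The test on counts moved with the scaling in the same way. By the quasi-likelihood test of edgeR, with TMM factors (a trimmed mean of the ratios between libraries), 170 of the 200 members were called across stages at an adjusted p under 0.05, next to 83.1% of the 14643 genes tested. All 200 members passed the filter on low counts. In the larva against unfE, 145 members were called higher, next to 38.3% of the genes tested, and 0 lower, next to 33.0%; 151 members had an unadjusted p under 0.05. The fitted log2 change of the members had a median of 0.62, against 0.26 over all genes tested, and was below 0 in 5 members. None of these counts is a test of the members, which were selected on the same libraries. Scaling by library totals gave 24 members higher and 15 lower (31.8% and 41.8% of the genes tested) and limma on log2(TPM+1) gave 20 higher and 18 lower (31.8% and 42.7%). With RLE factors 194 members were called higher and 0 lower (43.2% and 26.5%), and DESeq2, whose factors are of the same kind as those of the deposited table, called 195 higher and 0 lower (41.1% and 26.2% of the 15357 genes to which it gave an adjusted p). The median log2 change of all genes tested was 0.64 with RLE factors and -0.28 with library totals.

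**Figure D4:**
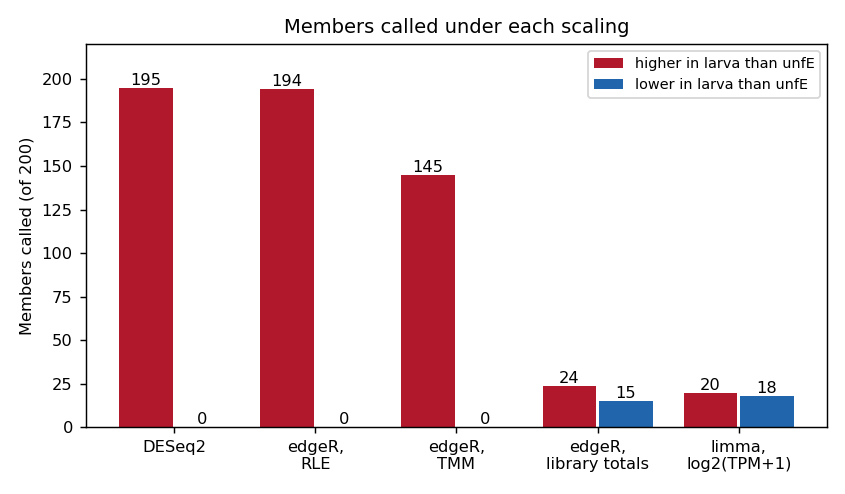
Number of the 200 members called higher (red) or lower (blue) in the larva than in unfE at an adjusted p under 0.05, for 5 ways of scaling and testing the libraries. The bars run between 195 higher and 0 lower with DESeq2 and 20 higher and 18 lower with limma on log2(TPM+1).

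By function, 30 of the 87 members with a symbol fell into 1 of 25 gene lists, and the list with the most members was membrane traffic. The lists were patterns on symbols and did not hold every gene of a function. The vesicle traffic list had 10 members among its 89 genes over the floor (11.2%, against 5.51% of all genes with a symbol). They cover the steps of the pathway: the coat and adaptor subunits COPB2, AP1S2 and AP2B1, the small GTPases ARF6 and ARL1, the fusion machinery STX7 and NAPB, the tether EXOC5, and the sorting nexins SNX13 and SNX14. Their mean TPM ran between 47.5 and 355.1. Of the whole list, 32 genes were called higher and 33 lower in the larva than in unfE by edgeR with TMM factors. Of the 10 members, 9 were called higher, next to 145 of all 200 members and 38.3% of all genes tested. All members were chosen for a steady TPM, so nothing about traffic genes is read from the calls of these 10. In TPM, 6 of the 10 had a higher mean in the larva, with a median log2 difference of 0.11. The member not called was ARL1, a small GTPase of the Golgi, at 325.7 and 269.0 TPM in the larva, against 386.3 and 298.7 TPM in unfE (fitted log2 change 0.39 ± 0.26, SE). Its replicates lay far apart in several stages, for example 449.9 and 287.3 TPM in cell16.

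Protein synthesis gave the next groups. Translation factors had 5 members among 26 genes over the floor (19.2%): EIF4E, which binds the mRNA cap, EIF4A2, the helicase that works beside it, EIF3K and EIF3L, subunits of the scaffold that joins mRNA and ribosome, and EIF5A. EIF4E had 287.9 and 280.2 TPM in the larva, against 286.7 and 382.6 TPM in unfE, and EIF4A2 had 508.5 and 491.4 TPM in the larva, against 368.8 and 445.3 TPM in unfE. EIF3L had 203.3 and 206.5 TPM in the larva, against 127.3 and 143.8 TPM in unfE. Of these 3, only EIF4E overlapped between the stages, and 4 of the 5 members had a higher mean TPM in the larva. In TPM, the larva libraries lay above the unfE libraries in 39.2% of all genes tested, and below them in 48.1%. Among all members, 103 had a higher mean TPM in the larva than in unfE and 97 a lower one. The members were chosen for a steady TPM, so nothing about translation factors is read from these 5. Of the whole list, 9 genes were called higher and 6 lower in the larva by edgeR.

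Factors that process ribosomal RNA had 5 members among 49 genes (10.2%): NOP9, DKC1, GAR1, LTV1, which escorts the small subunit out of the nucleus, and NOL6, a nucleolar protein. All 5 were called higher in the larva by edgeR with TMM factors, next to 145 of all 200 members and 38.3% of all genes tested. In the whole list 10 genes were called higher and 22 lower. The members were chosen for a steady TPM, so nothing about rRNA processing is read from the 5 calls. In TPM, 3 of the 5 had a higher mean in the larva, with a median log2 difference of 0.03. LTV1 had 88.0 and 78.1 TPM in the larva, against 77.5 and 85.4 TPM in unfE, and reached 115.1 and 106.6 TPM in iniG. Ribosomal proteins behaved otherwise. All 34 cytosolic ribosomal protein genes over the floor were called higher in the larva, with a median log2 TPM difference of 1.48, and only RPL34 was a member, at 338.7 and 299.2 TPM in the larva, against 185.6 and 250.7 TPM in unfE.

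The smaller groups each contributed a few genes. The kinase and phosphatase list is not complete: the kinases SNRK and EIF2AK3 are members that it does not hold. The kinase and phosphatase list had 3 members of 48 genes over the floor: CSNK2B, the regulatory subunit of casein kinase II, with 208.2 and 206.0 TPM in the larva, against 239.1 and 253.3 TPM in unfE, MARK3, a kinase of cell polarity, with 102.1 and 99.8 TPM in the larva, against 111.4 and 123.0 TPM in unfE, and PRKAR1B. CSNK2B and MARK3 were lower in both larva libraries in TPM and were nevertheless called higher with TMM factors (fitted log2 changes 0.36 ± 0.14 and 0.39 ± 0.13, SE), so for these genes the direction itself depends on the scale. The signal peptidase subunits SPCS2 and SPCS3 were the members of the list of endoplasmic reticulum genes (2 of 45), HNRNPM and SFSWAP those of splicing (2 of 60), DPY30 that of chromatin (1 of 30), and TKT, an enzyme of the pentose phosphate pathway, that of central carbon metabolism (1 of 20). TKT had 226.3 and 288.1 TPM in the larva, against 192.1 and 181.1 TPM in unfE.

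No member came from the lists of the proteasome (0 of 18), the ubiquitin pathway (0 of 45), RNA polymerase and Mediator (0 of 20), mRNA decay (0 of 21), the nuclear pore (0 of 16), DNA replication and repair (0 of 12), mitosis and centrosome (0 of 26), chaperones (0 of 23), the respiratory chain (0 of 22), mitochondrial ribosomal proteins (0 of 11), mitochondrial import (0 of 17), tRNA synthetases (0 of 10), autophagy (0 of 8), cilium (0 of 4), extracellular matrix (0 of 5) or muscle (0 of 1). These are counts of the lists, which are not complete, so a 0 does not mean that no member has the function. ZNRF2, a ubiquitin ligase, is a member that the ubiquitin list does not hold. Whether these counts differ from 5.51% was not tested. Members in none of the lists include ACTR3, a subunit of the complex that branches actin filaments, the GTPase CDC42, its inhibitor ARHGDIA, and ABI1, a subunit of the complex that activates branching. No list of actin genes was counted, and these 4 were picked out after their values were seen, at mean TPMs of 221.4, 380.8, 80.7 and 52.2 and CVs of 0.143 to 0.189.

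The members also differed in how far they moved on the size-factor scale. The 5 members with a symbol and the largest log2 differences between larva and unfE on that scale were PRKAR1B (1.74), EIF5A (1.61), EIF3L (1.58), RPL34 (1.54) and ATP6AP1.2, an accessory subunit of the vacuolar proton pump (1.50). The 5 smallest were PNPLA6 (0.51), METTL24, a protein of the methyltransferase family (0.56), MGAT2, an enzyme of N-glycan branching (0.58), LLGL1, a cell polarity protein (0.59), and HNRNPM (0.61). PNPLA6 had size-factor-scaled values of 18843 and 19691 in the larva, against 13867 and 13127 in unfE, and 150.5 and 155.7 TPM in the larva, against 205.4 and 218.3 TPM in unfE. It lay higher on one scale and lower on the other, without overlap in either case, and edgeR with TMM factors, which lies between them, did not call it (fitted log2 change 0.14 ± 0.15, SE).

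Genes that are often used as references in other systems spanned nearly the whole ranking. Of the 32 rows that carry a symbol on 2 lists of common reference genes, 24 passed the floor and 2 of these were members (8.33%, next to 6.14% of all genes over the floor): EIF4A2 (CV 0.135, place 27) and ODC1 (CV 0.137, place 35). ODC1, the first enzyme of polyamine synthesis, had 453.1 and 477.7 TPM in the larva, against 317.5 and 428.8 TPM in unfE. CHMP2A (CV 0.209, place 253), RAB7A (0.213, place 272) and RPLP0 (0.235, place 393) came next. GAPDH, an enzyme of glycolysis, was at place 2791 of 3258 (CV 0.593), with a mean of 136.6 TPM in the larva, against 653.0 TPM in unfE. The ACTB match with the higher level (KY21.Chr11.687), a cytoplasmic actin, was at place 2977 (CV 0.653), with 5725 TPM in the larva, against 1227 TPM in unfE, and Salmon may divide reads among actin copies. SDHA (place 3153), TBP (place 3119) and ATP5B (place 3180) were lower in the larva, ATP5B with 130.9 TPM, against 1425 TPM in unfE. Further genes after place 393 were ALAS1 (834), YWHAE (906), RPL8 (984), VCP (1018), PPIB (1096), RPS18 (1120), PSMB4 (1565), VPS29 (1591), EMC7 (2157), RPL4 (2202), POLR2A (2505), TUBB4B (2603), PPIA (2645) and GPI (3034). On the size-factor scale, VCP, an unfolding ATPase (CV 0.109, place 26), and VPS29, a retromer subunit (CV 0.154, place 145), were among the 200 lowest. The 8 rows below the floor were PSMB2, EEF1A1, TUBA1A, ACTG1, a second ACTB match, PGK1, GUSB and HPRT1.

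**Figure D5:**
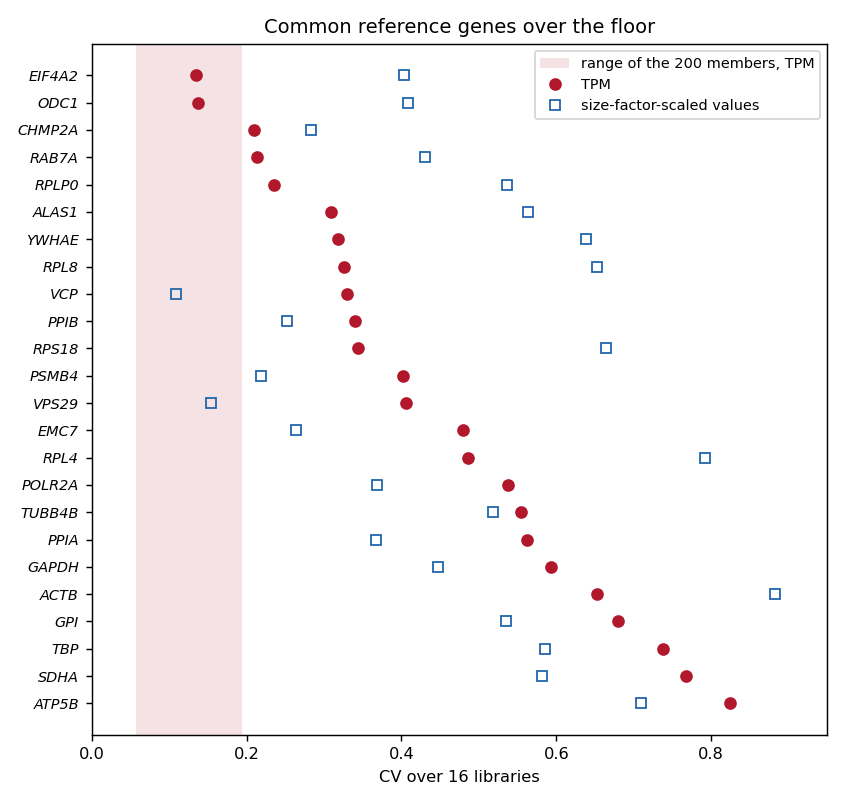
CV over the 16 libraries of the 24 common reference genes over the floor, in TPM (red points) and in size-factor-scaled values (blue squares), ordered by the TPM value; the shaded band is the TPM range of the 200 members, 0.0571 to 0.195. Only EIF4A2 and ODC1 lie in the band with their TPM value, and VCP and VPS29 lie in it with their size-factor value.

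Because 1 set of libraries both chose and described the members, the choice was repeated in 1 replicate and read in the other. The 200 genes with the lowest CV of TPM over the 8 replicate-1 libraries (median 0.151) had a median CV of 0.180 over the 8 replicate-2 libraries, against 0.423 there for all 3507 genes that passed the floor in the replicate-1 libraries, and 199 of the 200 lay below that median. Chosen in the replicate-2 libraries (median 0.152), the genes had a median CV of 0.181 in the replicate-1 libraries, against 0.433 there for the 3515 genes that passed the floor in the replicate-2 libraries, and all but 2 lay below it. In each direction 106 of the 200 were again among the 200 lowest, so the low spread of the group carried over to libraries that had no part in the choice, while many of the names changed. Of the 2 choices, 139 and 154 genes are members. The same procedure on the size-factor scale gave medians of 0.160 and 0.168, with 88 and 86 of the 200 genes again among the 200 lowest, so on this scale too the low spread carried over more than the names did.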

How the data were processed

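After FastQC and Trim Galore, the authors ran Salmon against KY21 transcripts and added up its estimates by gene. The authors deposited estimated counts, TPM, and signal values, which are those counts rounded and divided by a DESeq2 size factor of each library. The members and the gene lists were chosen with earlier results of these data known. No column of per-sample values was left out.

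Estimated counts were rounded, and edgeR 4.0.16 (R 4.3.3) was run on them (filterByExpr by stage, TMM factors, robust quasi-likelihood fit over all 16 libraries, Benjamini-Hochberg adjustment over 14643 genes). Standard errors were derived as the log2 change over the square root of F. Alternatives were DESeq2 1.42.0, limma 3.58.1 on log2(TPM+1), other scalings and filters, a minimum log2 change of 1, replicate number as a block, other floors and measures of spread, and each library left out. CVs were computed in Python 3.11.15 with pandas 2.3.3. Replicates of a stage differed beyond sampling noise (mean chi-square per gene 37.4 to 111.2), and nothing shows that they are technical copies. Named genes are the 3 lowest CVs, and, with a symbol, the 10 lowest CVs, the 5 highest and 5 lowest mean TPMs, up to 4 per list, and the 5 largest and 5 smallest size-factor differences; genes picked otherwise are named as such. Some genes of the reference lists are not reported here. Symbols came from tables held in part, and no sequence of the KY21 models was used here.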

Additional observations from a re-analysis of the deposited data

How the results depend on the processing

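The members depend on the scaling far more than on any library. Applied otherwise, the rule kept 185 of the 200 genes with TPM rescaled to KY21 rows, 173 with CPM of library totals, 190 with the SD of log2(TPM+1), 188 and 154 with floors of 10 and 50 TPM, 181 to 193 without any 1 library, and 30 with TMM-scaled CPM (counts over the library total and TMM factor). The median CV of the members, 0.164 in TPM, was 0.342 in size-factor-scaled values, 0.242 in TMM CPM, 0.162 both in TPM rescaled to KY21 rows and in CPM of totals, 0.142 over stage means, 0.161 and 0.160 in the replicate-1 and replicate-2 libraries alone, and 0.160 to 0.168 without any 1 library. The median log2 difference between larva and unfE, 0.99 in size-factor-scaled values, was 0.0046 in TPM, 0.0060 in TPM rescaled to KY21 rows, 0.035 in CPM of totals and 0.62 in TMM CPM. Of the members, 30 were among the 200 lowest CVs of TMM CPM and 1 among those of size-factor-scaled values with a floor of 50 TPM. The mean held-out CV, 0.180, was 0.164 in size-factor-scaled values, 0.181 with a floor of 10 TPM and 0.182 with a floor of 50 TPM.

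With library totals 96 members were called across stages, 24 higher and 15 lower in the larva, next to 12323, 4654 and 6120 of the 14643 genes tested. Limma on TPM gave 98, 20 and 18 members, next to 12618, 4654 and 6253 genes. A log2 change of at least 1 left 21 members higher, next to 5120 of the 14643 genes tested. Without any 1 library, 145 to 168 members were called across stages and 112 to 146 higher, the fewest without larva replicate 2, and none lower. With a replicate block, 171 members were called across stages, 146 higher and 0 lower, next to 12189, 5656 and 4859 of the genes tested. Same-numbered replicates deviated together among unfE, fertE and cell16 (r 0.56 to 0.61), in iniG with latN (0.48) and in latTII with larva (0.17). They did not in the other pairs of stages, larva with unfE included (-0.15 to 0.05). The number was therefore not taken as a pairing of all samples. The calls over all genes, 12165 across stages and 10437 between larva and unfE in the main fit, stayed within 1.5 times under every alternative. All values are relative, so the number of molecules per embryo was not measured.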
